A study of Mus musculus with 3 samples.

Results

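The mir-26 family of the mouse was followed in small RNA libraries of AoSMC, smooth muscle cells grown from the mouse aorta, where they form the contractile layer of the wall. All deposited windows named mmu-miR-26a or mmu-miR-26b, at every locus, were taken as members. They were 12 of 2590 windows, 6 of microRNAs (miRs) and 6 of microRNA-offset RNAs (moRs), from 3 of 808 hairpins. The series held 1 group of 3 replicate libraries from untreated C57BL/6 cells. The cells had grown out of pieces of several aortas in medium with serum and were harvested near confluence. The labels call the libraries biological replicates without saying that they came from separate cultures, so the spread between them, and every p-value built on it, may be technical. Age and sex of the mice were not given in the sources used here. With 1 group there is no contrast between conditions, and each comparison sets RNAs of the same libraries against each other.

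A microRNA precursor folds into a hairpin that Drosha cuts out of the primary transcript and Dicer cuts into a 5p and a 3p miR, 1 of which is usually loaded into Argonaute while its partner is degraded. A moR is a short RNA from the part of the primary transcript just outside the miR. The miR-26 family recognises its targets through a common seed, and its best known targets include Ezh2, the catalytic subunit of the Polycomb repressive complex that methylates histone H3. In human aortic smooth muscle cells miR-26a is known to hold back differentiation and to target SMAD1. The 3 hairpins lie within genes of the small C-terminal domain phosphatases, which act on RNA polymerase II and help to silence neuronal genes.

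All 3 hairpins lie on the plus strand (mm10, the same build as GRCm38) and on the same strand as the host gene, the sole other annotated gene that overlaps each of them. Mir26a-1 lies at chr9:119031796-119031885, in intron 5 of the protein-coding transcript Ctdspl-201. Mir26a-2 lies at chr10:126995530-126995613, in intron 5 of the protein-coding transcript Ctdsp2-202. The shorter transcripts Ctdsp2-201 and Ctdsp2-203 begin at position 126995613, the last base of this hairpin, so that 1 base is exonic in them. Mir26b lies at chr1:74394310-74394394, in intron 4 of the protein-coding transcript Ctdsp1-201. The annotated hairpins, from RefSeq on GRCm38.p6, are shown because their shared and unshared stretches decide which reads can be assigned to a locus. Capitals mark the 5p and the 3p miR.
Mir26a-1: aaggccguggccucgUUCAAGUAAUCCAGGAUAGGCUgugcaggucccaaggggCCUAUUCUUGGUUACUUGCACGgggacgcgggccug
Mir26a-2: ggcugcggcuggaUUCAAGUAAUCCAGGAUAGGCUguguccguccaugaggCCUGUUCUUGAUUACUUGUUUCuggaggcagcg
Mir26b: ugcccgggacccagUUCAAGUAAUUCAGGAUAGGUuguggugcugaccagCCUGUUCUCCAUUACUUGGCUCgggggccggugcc

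The mature miRs are shown next with the seed, bases 2 to 8, in capitals, since the seed groups them.
miR-26a-5p: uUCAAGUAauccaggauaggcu
miR-26b-5p: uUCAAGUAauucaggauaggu
miR-26a-1-3p: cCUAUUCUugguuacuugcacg
miR-26a-2-3p: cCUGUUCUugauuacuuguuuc
miR-26b-3p: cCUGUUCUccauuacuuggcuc

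The 5p miRs share the seed UCAAGUA, which no other mouse miR in the RefSeq table carried (3 of 1738 mature entries, those of the 3 hairpins). Over the 21 bases that can be compared from the 5′ end, miR-26a-5p and miR-26b-5p were identical at 19 and differed by C11U and C21U, with the base of miR-26a-5p first. The 3p miRs are less alike. miR-26a-2-3p and miR-26b-3p share the seed CUGUUCU with miR-6932-3p and miR-7039-3p, and are identical at 18 of 22 bases, with the differences U9C, G10C, U19G and U20C. miR-26a-1-3p has the seed CUAUUCU, found in no other entry, and is identical to miR-26a-2-3p at 16 and to miR-26b-3p at 14 of 22 bases. The change A4G, with the base of miR-26a-1-3p first, lies in the seed and separates miR-26a-1-3p from both others.

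These sequences limit what the reads can tell. Both mir-26a loci were identical over 25 bases from the start of the 5p miR, which is the mature miR of 22 bases and all 3 bases by which the counting window reaches beyond it, and shared 0 bases directly before it. A read of miR-26a-5p that does not begin before the mature 5′ end therefore fits both loci, and the authors split such reads evenly. The longest stretch shared by the 5p windows of Mir26b and of a mir-26a locus was 11 bases, and between the 3p windows of any pair of loci it was 9 bases. Counted reads were longer than 13 bases, so miR-26a-5p, miR-26b-5p and each of the 3p miRs were counted apart. The locus-specific 3p miRs and 5p moRs, not the 5p miRs, thus carry the comparison of loci below.

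The libraries held 15123616 to 18636286 mapped reads, of which 73.1% in replicate 1, 83.0% in replicate 2 and 81.9% in replicate 3 lay in miR and moR windows. Levels are given in RPMR, reads per 1000000 reads of all miR and moR windows, and a single read was worth 0.0734, 0.0797 and 0.0659 RPMR in the libraries of replicates 1, 2 and 3. Reads carried no molecular identifiers, and all intervals below cover counting error only. The labelled cell type was checked with marker miRs. The sum of 4 smooth muscle miRs of the mir-143 and mir-145a hairpins lay between 48742 and 59042 RPMR. The sum of 2 endothelial miRs lay between 125 and 158 RPMR, that of 6 blood miRs between 0.880 and 1.45 RPMR and that of 6 epithelial miRs between 7.49 and 8.14 RPMR. Of 6 striated muscle miRs, 5 were listed, with sums between 117 and 151 RPMR, nearly all from miR-206-3p. All pairs of libraries differed beyond sampling noise over miRs, with chi-square divided by its degrees of freedom between 42.8 and 332.

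The guide strand of mir-26a was among the most abundant miRs of these cells. miR-26a-5p, the reads of both loci summed, was at 36403, 26384 and 26495 RPMR in replicates 1, 2 and 3, with a mean of 29760 ± 5753 (SD, n = 3). It ranked 5 in replicate 1 and 6 in replicates 2 and 3 among 1230 mature names. Replicate 1 was high and the other libraries were nearly equal, with replicate 1 at 1.38 times their mean. miR-26b-5p was at 2049, 1757 and 1910 RPMR, with a mean of 1905 ± 146 (SD, n = 3), and ranked 38, 40 and 41. No value of miR-26b-5p came near those of miR-26a-5p. The 6 miRs of the family together took 3.17% ± 0.587 (SD, n = 3) of window reads, of which 93.7% ± 0.759 were miR-26a-5p and 6.08% ± 0.703 were miR-26b-5p (SD, n = 3).

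**Figure D1:**
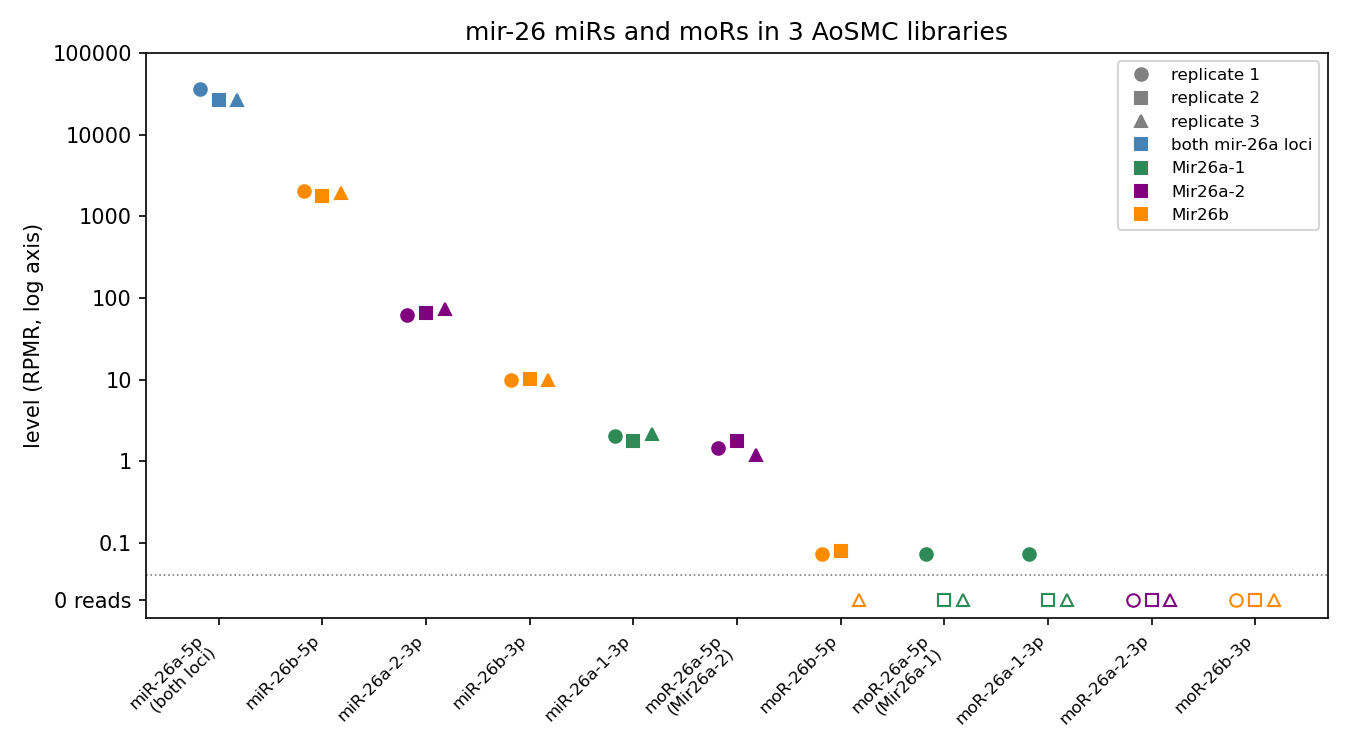
Level of each mir-26 miR and moR in RPMR on a log axis, with 1 symbol per replicate library and colours for the locus. Open symbols on the lowest line are libraries with 0 reads; miR-26a-5p, summed over both loci because its reads cannot be assigned, stands at 26384 to 36403 RPMR, and of the moRs only moR-26a-5p of Mir26a-2 stands above 1 RPMR in every library.

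miR-26a-5p exceeded miR-26b-5p in each library, by 17.8, 15.0 and 13.9 times in replicates 1, 2 and 3 and by 15.6 ± 2.00 times on average (SD, n = 3). The fitted log2 fold change was 3.95 ± 0.09 (SE), with an adjusted p of 5.3e-08 (edgeR, quasi-likelihood, library as a blocking factor). Pairs of 5p names that share a miRNA number usually differ in this way: 135 of 143 such pairs passed, which is 94.4%, with a median absolute log2 fold change of 3.57. By size the miR-26a-5p to miR-26b-5p difference ranked 64 of 143. The share of miR-26 seed RNA that came from miR-26b-5p was therefore small in every library. Ratios compare reads, and how well each sequence entered the libraries was not measured.

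The excess of replicate 1 in miR-26a-5p was smaller under other denominators but kept its direction. In reads per 1000000 mapped reads miR-26a-5p was at 26628, 21888 and 21709 in replicates 1, 2 and 3, and the coefficient of variation fell to 11.9% from 19.3%. With the mir-21a hairpin left out of the window total, the level was 71386, 57245 and 55748 reads per 1000000. miR-26b-5p varied less under all 3 denominators, with coefficients of variation of 7.68%, 3.59% and 3.02%. miR-26a-2-3p and miR-26b-3p did not share the excess of replicate 1, where they had their lowest RPMR. miR-26a-1-3p, at 2.05, 1.75 and 2.17 RPMR in replicates 1, 2 and 3, was highest in replicate 3. The share of mapped reads inside the windows was also lowest in replicate 1, and its part in these differences was not tested.

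**Figure D2:**
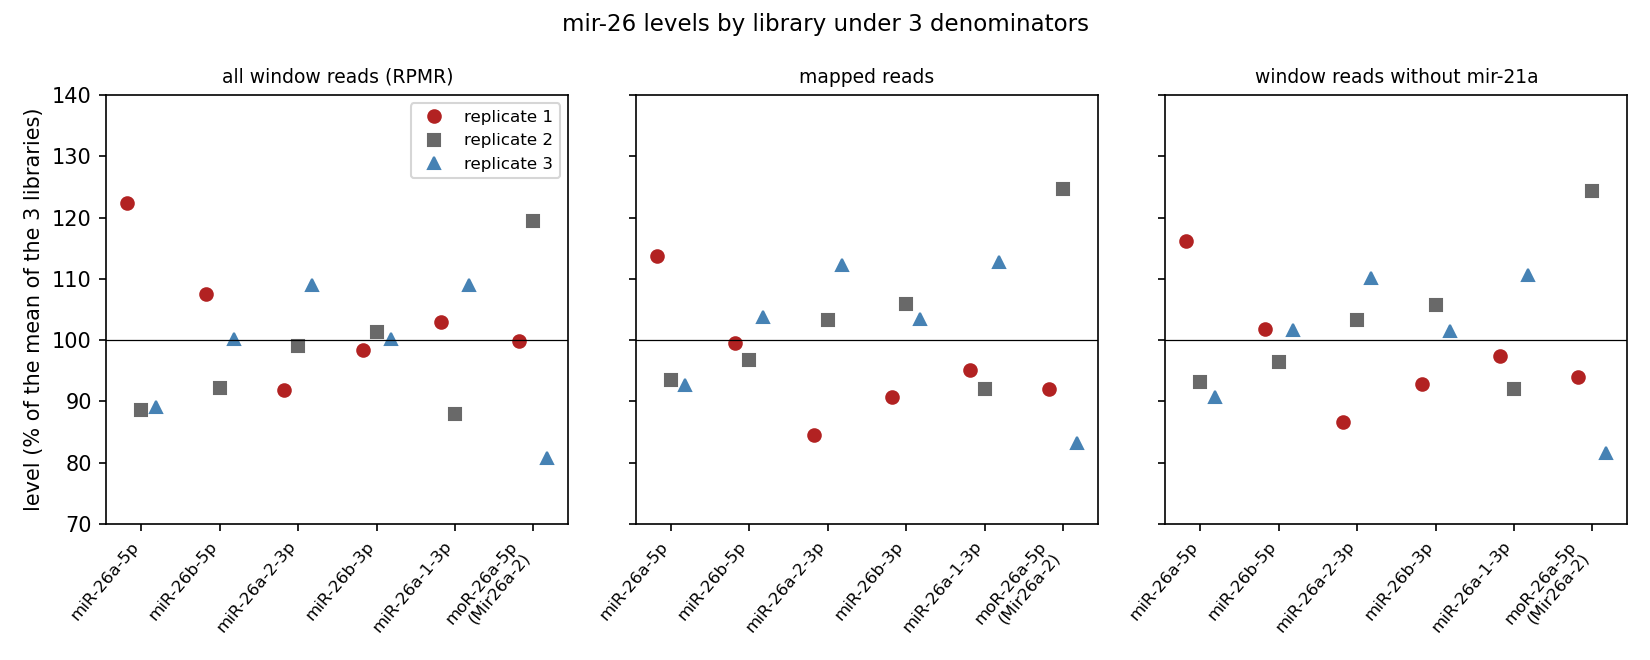
Level of 5 mir-26 miRs and of moR-26a-5p of Mir26a-2 in each library as a percent of the mean of the 3 libraries, with the values divided by all window reads, by mapped reads or by window reads without the mir-21a hairpin. The vertical axis starts at 70%; replicate 1 is the highest library for miR-26a-5p in all 3 panels and the lowest for miR-26a-2-3p and miR-26b-3p.

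Neighbours of the 5p miRs in level were found by the Euclidean distance of log2(RPMR + 0.1) over the 3 libraries. The nearest names to miR-26a-5p were miR-146b-5p, a damper of inflammatory signalling, at a distance of 0.126, miR-99a-5p at 0.401 and let-7f-5p, of the let-7 family, at 0.798. miR-146b-5p was at 36908, 28758 and 26578 RPMR and was likewise highest in replicate 1. miR-99a-5p was at 31409, 31406 and 31052 RPMR, below miR-26a-5p in replicate 1 and above it in replicates 2 and 3. The order of these 3 miRs thus changed between libraries. The nearest names to miR-26b-5p were miR-31-5p (distance 0.223), miR-423-3p (0.249) and miR-7a-5p (0.339). miR-31-5p was at 1912, 1653 and 2162 RPMR, so that it stood below miR-26b-5p in replicates 1 and 2 and above it in replicate 3.

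Of 18 miRNA name stems known for smooth muscle phenotype, all 18 were listed, but listing did not require reads. The lowest stem was at 0 RPMR in every library. The stems with a miR above miR-26a-5p in every library were 2, miR-21a, which promotes proliferation, and miR-143, which is abundant in contractile smooth muscle. Those with a miR above miR-26b-5p in every library were 6. miR-145a-5p, the partner of miR-143 in promoting the contractile state, was at 1195 ± 258 RPMR (SD, n = 3) and thus below miR-26b-5p, as it was in each library. Within this list miR-26a-5p would stand between miR-143-3p, at 50855 ± 4963 RPMR, and miR-125b-5p, at 19544 ± 3449 RPMR (SD, n = 3).

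The 3p miRs, the passenger strands, were far lower and told the loci apart. miR-26a-2-3p was at 61.1, 65.8 and 72.4 RPMR from 833, 826 and 1099 reads, with a mean of 66.5 ± 5.68 (SD, n = 3). miR-26b-3p was at 9.83, 10.1 and 10.0 RPMR from 134, 127 and 152 reads, with a mean of 9.99 ± 0.148 (SD, n = 3). miR-26a-1-3p was at 2.05, 1.75 and 2.17 RPMR from 28, 22 and 33 reads, with a mean of 1.99 ± 0.217 (SD, n = 3). The values of the 3 loci did not overlap. Of all 3p reads of the family, Mir26a-2 gave 84.8% (95% exact Clopper-Pearson interval 83.5% to 86.0%), Mir26b 12.7% (11.6% to 13.9%) and Mir26a-1 2.55% (2.04% to 3.15%).

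All 3 differences between loci passed the test across the pairs of loci that share a miRNA number, of which 157 of 179, or 87.7%, passed in either direction. Mir26a-2 gave more 3p miR than Mir26a-1, by 5.05 ± 0.16 (SE) on the log2 scale, with an edgeR adjusted p of 1.7e-17. The read ratio was 29.8, 37.5 and 33.3 in replicates 1, 2 and 3, and 33.2 over all libraries (95% exact interval 26.7 to 41.9). This log2 difference ranked 38 of 179 by size, against a median absolute value of 2.88. Mir26a-2 also exceeded Mir26b, by 2.73 ± 0.13 (SE) on the log2 scale with an edgeR adjusted p of 2.1e-14, at a read ratio of 6.68 (6.02 to 7.42). Mir26b exceeded Mir26a-1 by 2.31 ± 0.17 (SE) on the log2 scale with an edgeR adjusted p of 5.4e-11, at a read ratio of 4.98 (3.92 to 6.38). These last log2 differences lay below the median of all pairs in size.

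The 5p miR of the mir-26a loci could not be compared in this way because of the even split. The deposited counts of miR-26a-5p were 614653.0 reads at Mir26a-1 and 614687.5 at Mir26a-2 over the 3 libraries. The excess at Mir26a-2 was 14.5, 9 and 11 reads in replicates 1, 2 and 3. Apart from these few reads, the 5p values of the mir-26a loci are copies of 1 measurement. The 3p ratio of 33.2 is a ratio of 3p miRs, and a 5p share per locus was not computed from it.

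**Figure D3:**
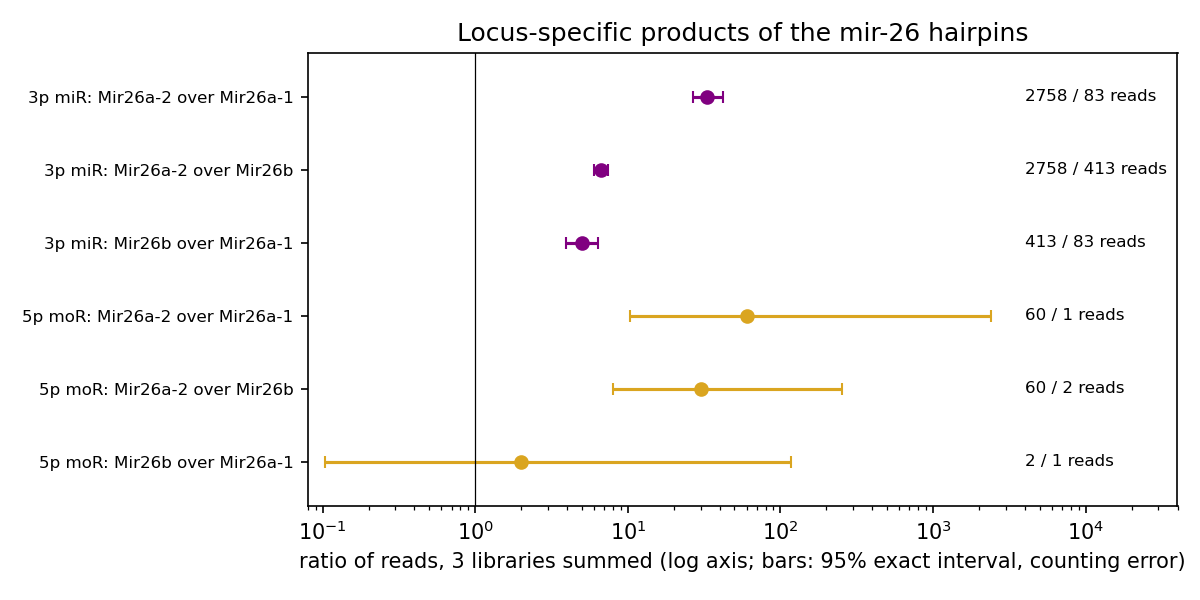
Ratio of reads between pairs of mir-26 loci on a log axis for the 3p miRs and the 5p moRs, both of which can be assigned to a locus, with the reads of the 3 libraries summed and bars for the 95% exact counting interval. The ratio of Mir26a-2 to Mir26a-1 is 33.2 for the 3p miR and 60 for the 5p moR, with an interval for the moR that contains the whole interval for the miR.

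The 5p arm dominated in all 3 hairpins. Across hairpins 160 of 373 passed with more 5p than 3p miR, which is 42.9%, and the median log2 ratio was -0.07. Mir26b had 78961 miR reads on the 5p arm and 413 on the 3p arm, so that 99.5% of its miR reads were 5p. On the log2 scale this was 7.57 ± 0.15 (SE), with an edgeR adjusted p of 7.9e-16. With the even split taken as it stands, the log2 ratio was 7.79 ± 0.17 (SE) at Mir26a-2 and 12.84 ± 0.18 (SE) at Mir26a-1, with edgeR adjusted p of 1.4e-15 and 3.0e-17. The difference between both values follows from setting equal 5p counts against unequal 3p counts. Neither value, nor its p, measures the arm ratio of its own locus. A fit with the mir-26a loci summed as 1 hairpin, which was added once results had been seen, gave a log2 ratio of 8.75. When all 373 hairpins were ordered from the highest log2 ratio of summed reads, with 0.5 read added to each arm, Mir26a-1 stood at 3, Mir26a-2 at 38 and Mir26b at 39. The places of both mir-26a loci rest on the even split.

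**Figure D4:**
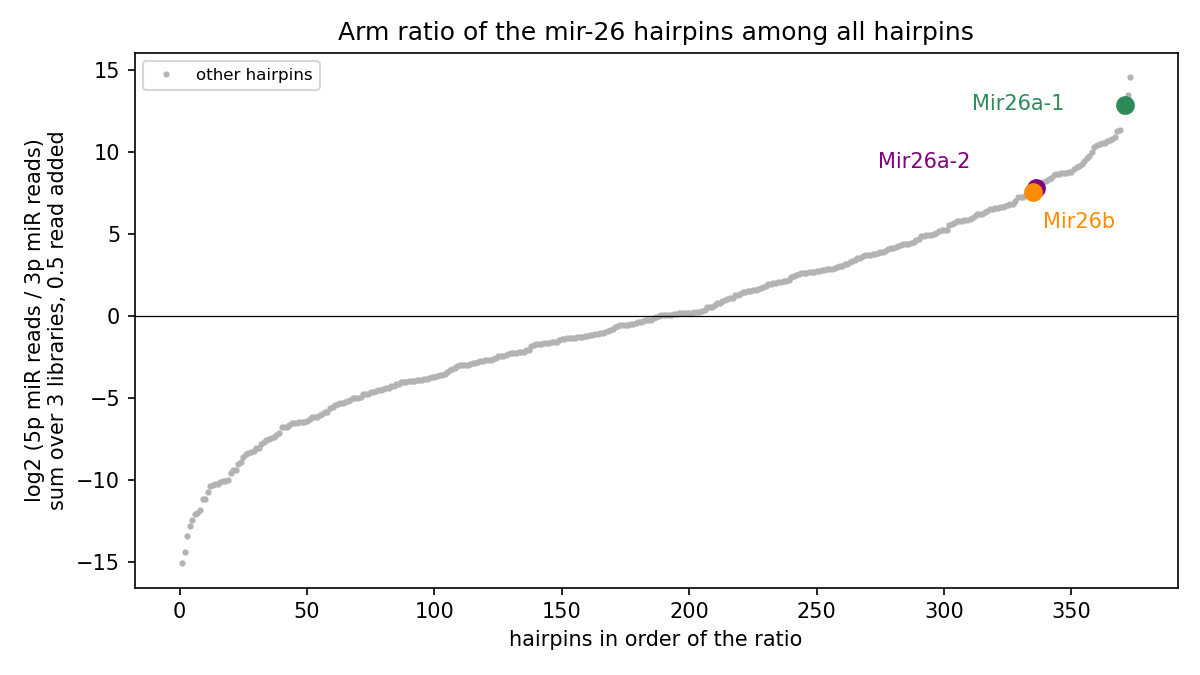
Log2 ratio of 5p to 3p miR reads, with 0.5 read added to each sum over 3 libraries, for 373 hairpins in order of the ratio. The mir-26 hairpins stand at 7.58 for Mir26b, 7.80 for Mir26a-2 and 12.8 for Mir26a-1, both mir-26a values from an even split of the 5p reads.

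The arm ratios of mir-26a and mir-26b were compared with the mir-26a loci summed. There were 576, 390 and 355 reads of miR-26a-5p for each read of its 3p miRs in replicates 1, 2 and 3. For mir-26b there were 208, 174 and 191 reads of the 5p miR for each read of the 3p miR. The ratio of mir-26a was higher in 3 of 3 libraries, by 1.47, 1.17 and 0.90 on the log2 scale in replicates 1, 2 and 3 and by 1.18 ± 0.28 on average (SD, n = 3). By exact sign-flip permutation over the libraries the two-sided p was 0.25, below which this test cannot go with 3 libraries. The difference was largest in replicate 1, where miR-26a-5p was highest and miR-26a-2-3p lowest.

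Among the moRs, 1 of the 6 windows carried nearly all of the reads. moR-26a-5p of Mir26a-2 had 20, 22 and 18 reads, or 1.47, 1.75 and 1.19 RPMR, with a mean of 1.47 ± 0.284 (SD, n = 3). It ranked 23, 22 and 30 among 1295 moR windows. Most of these were empty, since a window with 0 reads ranked 184, 205 and 220 in replicates 1, 2 and 3. moR-26a-5p of Mir26a-2 made up 93.8% of the 64 moR reads of the family. Its reads came close to those of miR-26a-1-3p, the rarest miR of the family, at 28, 22 and 33 in replicates 1, 2 and 3. The moR had fewer reads in replicates 1 and 3 and as many in replicate 2. moR-26b-5p had 1, 1 and 0 reads, moR-26a-5p of Mir26a-1 had 1, 0 and 0 reads and moR-26a-1-3p had 1, 0 and 0 reads. moR-26a-2-3p and moR-26b-3p had 0 reads in every library, which allows up to 0.220, 0.239 and 0.198 RPMR in replicates 1, 2 and 3, the level of 3 reads.

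The window of moR-26a-5p of Mir26a-2 lies at chr10:126995508-126995546 and is shown because it holds the abundant moR of the family and because its bases before the miR differ from those of Mir26a-1. It reaches 35 bases outward from the first base of the miR and 3 bases inward from it. The sequence is from RefSeq (GRCm38.p6, plus strand, DNA letters), with the bases that belong to the miR in capitals.
moR-26a-5p window of Mir26a-2: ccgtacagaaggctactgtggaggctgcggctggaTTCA

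The outer flanks of the annotated hairpins before the 5p miR were short, 15 bases with 73.3% G and C in Mir26a-1, 13 bases with 76.9% in Mir26a-2 and 14 bases with 78.6% in Mir26b. The moR window of Mir26a-2 thus began outside the annotated hairpin and lay wholly in the intron of Ctdsp2-202. The tables used here count reads per window, so the ends of the moR within the window were not determined.

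At Mir26a-2 the 5p moR had 60 reads and the 3p moR 0. With 0 replaced by 3 reads in each library, the 5p moR was at least 6.67-, 7.33- and 6.00-fold higher in replicates 1, 2 and 3, and the 95% exact interval of the ratio of summed reads began at 15.8. The edgeR adjusted p was 2.8e-07, and 66 of 81 hairpins, or 81.5%, passed with more 5p moR. Mir26a-2 reached the minimum of 10 moR reads only through its 5p moR, the higher side. Its p is therefore no separate support for that direction. Mir26a-1 and Mir26b had too few moR reads for this test. In 4 of the 6 arms at least 1 moR read was found, and in all 4 the miR was higher. This was also so in 224 of 242 arms with a moR read, or 92.6%. The test required at least 10 reads in sum per arm. The 5p arms of Mir26a-1 and Mir26b had 1 and 2 moR reads, and the 3p arm of Mir26a-1 had 1. These arms entered only through their miR reads, so the minimum fixed their direction in advance. Only the 5p arm of Mir26a-2, with 60 moR reads, could have gone either way. The 3p arms of Mir26a-2 and Mir26b, with 0 moR reads against 2758 and 413 miR reads, were not in this test. There were 20153 reads of miR-26a-5p for each read of its 5p moRs, both loci summed (95% exact interval 15689 to 26347). For miR-26b-5p there were 39481 reads for each of only 2 moR reads (10929 to 326009), and the intervals overlap. For the 3p arm of Mir26a-1, 83 miR reads stood against 1 moR read.

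The 5p moRs could be compared between loci only in pairs with Mir26a-2, where they differed in the same direction as the 3p miRs. Across pairs of loci of 1 miRNA number, 100 of 124, or 80.6%, passed in either direction. Mir26a-2 exceeded Mir26a-1 with 60 reads against 1 (95% exact interval of the ratio 10.4 to 2409, edgeR adjusted p = 3.7e-09). It exceeded Mir26b with 60 reads against 2 (interval of the ratio 7.95 to 253, edgeR adjusted p = 2.2e-08). Both pairs reached the minimum of 10 reads only through the reads of Mir26a-2, the higher locus. The pair of Mir26b and Mir26a-1, with 2 reads and 1 read, had too few reads to test.

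The 5p moR was then set against the 3p miR of the same locus, to see whether the loci differ in moR beyond their difference in 3p miR. Per 1000 reads of the 3p miR there were 21.8 reads of the 5p moR at Mir26a-2 (95% exact interval 16.6 to 28.1), 12.0 at Mir26a-1 (0.301 to 69.0) and 4.84 at Mir26b (0.585 to 17.6). In single libraries the value of Mir26a-2 was 24.0, 26.6 and 16.4. Of all pairs of loci, 69 of 89, or 77.5%, differed in this ratio. Both tested pairs of the family met the minimum of moR reads only through the moR reads of Mir26a-2. This selection favoured a higher ratio at Mir26a-2, so a p for that direction is no separate support for it. The pair of Mir26b and Mir26a-1 had too few moR reads to test. Mir26a-2 and Mir26a-1 did not differ detectably at this depth, with a fitted log2 difference of 0.42 ± 0.75 (SE, edgeR adjusted p = 0.62), or 1.34-fold. The ratio from summed reads was 1.81 (conditional exact interval 0.304 to 73.4). Mir26a-2 exceeded Mir26b by a fitted log2 difference of 1.94 ± 0.92 (SE, edgeR adjusted p = 0.045), or 3.84-fold. Here the ratio from summed reads was 4.49 (1.18 to 38.1). This call rests on 2 reads of moR-26b-5p. It was lost with DESeq2 (adjusted p = 0.061), without replicate 2 (edgeR adjusted p = 0.12) and without replicate 3 (edgeR adjusted p = 0.22), and was kept without replicate 1 (edgeR adjusted p = 0.026).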

How the data were processed

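Small RNA of 3 AoSMC libraries was sequenced by the authors with a read length of 75 bases. Bowtie (its version is not given in the sources used here) placed inserts longer than 13 bases on mm10 with 0 mismatches at up to 5 loci, and reads near several precursors were split evenly. The deposited raw reads are therefore expected counts, of which 96.1% were whole, and were rounded for tests. The deposited RPMR is an RPM value over all miR and moR windows. The deposited coordinates of miR and moR windows were used to place rows. Of 1679 windows, 1675 began 3 bases below the RefSeq start, so starts were read as 1-based. The authors' list of moRs above 1 RPMR and their other summary sheets were not used.

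The members and lists were chosen with earlier results of these data known. All miR and moR rows of the 3 hairpins are named, with the 3 miRs nearest in level to each 5p miR and up to 4 of the smooth muscle list. Contrasts were fitted over all hairpins with edgeR 4.0.16 (R 4.3.3), window totals as library sizes and the library as block, for items with at least 10 reads in sum and, for moR against miR, at least 1 moR read, which leaves out arms with miR reads alone. Both values of a contrast come from the same library, which is the source of the pairing. An adjusted p (Benjamini-Hochberg) under 0.05 was called. The SE of an edgeR log2 value is its absolute value divided by the square root of its quasi-likelihood F statistic. Pairs of loci were hairpins of 1 miRNA number, for numbers with 2 to 15 hairpins. Alternatives used DESeq2 1.42.0, TMM factors, other minimum reads, no block and each library left out. The fits were tested on simulated data, where all items set 16-fold apart were called. Counts were drawn independently with 1 fixed spread and no library effect, unlike the real libraries. Unchanged items called were 8 of 249 for 5p against 3p miR, 1 of 162 for moR against miR and 2 of 121 for 3p miR between loci. They were 2 of 97 for 5p names and 0 for the other contrasts. For the 5p moR between loci, 12 of the 20 pairs set 4-fold apart were called. For the 5p moR against the 3p moR, simulated for 81 hairpins, 6 of the 13 hairpins set 4-fold apart were called. Intervals are exact at 95%. Python 3.11.15, pandas 2.3.3, numpy 2.4.6, SciPy 1.17.1 and matplotlib 3.10.9 were used.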

Additional observations from a re-analysis of the deposited data

How the results depend on the processing

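Of 222 values under alternatives, 204 kept their direction and their side of the threshold or moved by less than the spread, or for counts by at most 1.5 times. Some of the 204 could hardly have changed. A mean level with 1 of 3 libraries left out always stays within the spread. The arm ratio of mir-26a was the higher in every library, and TMM factors scale both values of a library alike. The count of 204 is thus no measure of robustness. Under mapped reads as the denominator the mean levels were 23408 for miR-26a-5p, 1507 for miR-26b-5p, 52.9 for miR-26a-2-3p, 7.93 for miR-26b-3p, 1.58 for miR-26a-1-3p and 1.17 for moR-26a-5p of Mir26a-2. With window reads without the mir-21a hairpin they were 61460, 3950, 138, 20.8, 4.14 and 3.06 in the same order. These denominators rescale whole libraries and leave every ratio within a library as it was. Hairpins with more 5p moR were 42 of 47 with at least 30 reads. They were 54 of 69 without replicate 1, 50 of 63 without replicate 2 and 38 of 64 without replicate 3. The share thus fell without replicate 3, and not only the number of hairpins tested. The log2 difference in 5p moR over 3p miR of Mir26a-2 over Mir26a-1 ranged from -0.035 (without replicate 2) to 2.21 when 1 library was left out, with adjusted p between 0.17 and 0.90 by edgeR. That of Mir26a-2 over Mir26b was 2.18 with DESeq2 and 1.56 to 2.23 when 1 library was left out. Without the replicate block it was 1.94, with an adjusted p of 0.034 by edgeR, and leaving out the block changed no call of the members. The arm ratio of mir-26a over mir-26b ranged from 1.03 to 1.32 on the log2 scale when 1 library was left out, and was 0.22 for Mir26a-2 and 5.28 for Mir26a-1 with the even split taken as measured. The cause of these changes was not tested. The 5p moRs of Mir26a-1 and Mir26b, with 1 and 2 reads, limit every comparison of moRs between loci.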
